A study of Mus musculus with 36 samples.

Results

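Matrix metalloproteinases (MMPs) and tissue inhibitors of metalloproteinases (TIMPs) were described in cultured mouse mesenchymal stem cells (MSCs) from 4 tissues. The members were chosen by name: Mmp2, Mmp3, Mmp9, Mmp10, Mmp11, Mmp13, Mmp14, Timp1, Timp2 and Timp3, which are 10 of the 24411 genes listed. All 10 passed the filter on low counts, among 12509 genes tested.

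MMPs are secreted or membrane-bound zinc endopeptidases that cleave collagens and other matrix proteins. They are made as inactive precursors, and TIMPs bind the active site of the mature enzymes and block it. In bone, Mmp13 and Mmp14 are known for remodelling of the collagen matrix, and a complex of Mmp14 with Timp2 is the known activator of pro-Mmp2 at the cell surface.

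The cells came from 8-week-old C57BL6/J mice, and the paper names no treatment that differed between groups. Femoral (fBM-MSC) and vertebral (vBM-MSC) bone marrow cells were released by crushing the bone, whereas adipose (A-MSC) and pulmonary (P-MSC) tissue was minced and digested with collagenase. All cells were seeded on collagen I in MesenCult medium with MesenPure and a Rock inhibitor. They were used at no more than 3 passages. The way of isolation and the class of tissue (bone marrow or non-bone marrow) therefore cannot be told apart. RNA-seq comprised 3 libraries each of fBM-MSCs, A-MSCs and P-MSCs and 2 of vBM-MSCs, with 19569650 to 40517739 expected counts per library (median 34414200). The vBM-MSC replicate 3 was not analysed here. ATAC-seq, which marks open chromatin, comprised 1 peak list per tissue. The sources do not tie single libraries to single mice, although each mouse gave all 4 tissues, and each library was treated as independent. In bulk RNA, fewer cells of a type and less RNA per cell cannot be told apart.

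The 2 vBM-MSC libraries differed widely in several of these genes. The higher library exceeded the lower in TPM 36.5-fold for Mmp3, 7.21-fold for Mmp13, 6.47-fold for Mmp10, 2.57-fold for Mmp14 and 2.25-fold for Mmp2, and replicate 2 was the higher one for each. Over all genes tested with a value above 0 in both libraries, the median ratio was 1.29. The fBM-MSC libraries also varied, with highest-to-lowest ratios of 3.55 for Mmp13, 3.28 for Mmp10, 2.56 for Mmp2 and 2.45 for Timp1 and a median over all genes of 1.41. In A-MSCs, Mmp3 spanned 17.1-fold. Values without vBM-MSC replicate 2 stand beside the results that lose or gain a call without it. Of 9 MSC markers listed (among them Itgb1, Cd44, Ly6a and Vcam1), all 9 averaged at least 1 TPM in vBM-MSCs and 8 did in each of the other tissues. Against the other tissues, 5 of the 9 were higher in bone marrow and 2 lower, with Nt5e, Ly6a and Pdgfra the largest. Pdgfra, the lower of these, averaged 0.59, 3.15, 7.34 and 6.45 TPM in fBM-, vBM-, A- and P-MSCs. The leukocyte gene Ptprc (CD45) was at most 0.35 TPM in any library.

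Mmp13, Mmp3 and Mmp10 lie in 1 cluster of MMP genes on chromosome 9, and their promoters are shown because their letters differ from those of the other members. RefSeq promoter sequences (GRCm38.p6) were found for 8 of the 10 members, with no entry for Mmp2 and Mmp9. The 250 bases upstream of the start site are printed on the gene's strand, which is the plus strand for all 4 genes shown. They lie at chr9:7272264-7272513 (Mmp13), chr9:7445572-7445821 (Mmp3), chr9:7502092-7502341 (Mmp10) and chr14:54431348-54431597 (Mmp14, for contrast). Capitals mark the AP-1 letters TGAGTCA, the TATA-box letters TATAAA and the RUNX letters TGTGGT, or the reverse complement of each.
Mmp13: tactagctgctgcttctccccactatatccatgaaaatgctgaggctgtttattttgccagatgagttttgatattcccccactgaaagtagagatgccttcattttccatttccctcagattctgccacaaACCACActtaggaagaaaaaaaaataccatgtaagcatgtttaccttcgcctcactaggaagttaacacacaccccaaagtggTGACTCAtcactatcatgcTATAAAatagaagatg
Mmp3: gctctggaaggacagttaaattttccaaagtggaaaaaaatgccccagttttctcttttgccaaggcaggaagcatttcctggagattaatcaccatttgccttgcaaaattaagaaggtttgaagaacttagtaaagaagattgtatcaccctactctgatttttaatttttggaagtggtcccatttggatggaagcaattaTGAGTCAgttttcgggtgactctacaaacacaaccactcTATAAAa
Mmp10: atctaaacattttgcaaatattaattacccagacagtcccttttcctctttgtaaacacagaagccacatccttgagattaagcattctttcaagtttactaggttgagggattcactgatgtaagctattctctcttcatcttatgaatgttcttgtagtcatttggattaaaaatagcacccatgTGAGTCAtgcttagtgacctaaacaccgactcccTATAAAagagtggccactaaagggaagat
Mmp14: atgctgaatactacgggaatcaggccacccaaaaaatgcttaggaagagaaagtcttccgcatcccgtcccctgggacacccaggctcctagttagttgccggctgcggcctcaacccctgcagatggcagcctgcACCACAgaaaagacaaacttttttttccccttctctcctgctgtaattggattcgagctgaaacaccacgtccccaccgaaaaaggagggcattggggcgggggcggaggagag

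All motifs were searched on both strands of these 250 bases, with position -1 next to the start site. The AP-1 letters were found in Mmp13 (-35 to -29), Mmp3 (-46 to -40) and Mmp10 (-63 to -57), and in none of the other 5 members with an entry. They were present in 4.46% of 32851 promoters of this length. TATAAA was found in the same 3 members, between 2 and 29 bases upstream of the start site, and in 12.4% of all promoters. The RUNX letters TGTGGT or TGCGGT were found in Mmp13 (-118 to -113), Mmp14 (-114 to -109) and Mmp11 (-39 to -34), and in 18.6% of all promoters. The PEA3 letters AGGAAG, a core of ETS sites that are not in capitals above, were found in Mmp13, Mmp3, Mmp14, Timp1 and Timp3, and in 29.5% of all promoters. No motif found in a member overlapped another. A match of letters is a description and not a bound site.

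Among the 4 tissues, 8 of the 10 members differed (edgeR quasi-likelihood test, adjusted p under 0.05), beside 60.6% of all genes tested. The exceptions were Mmp10 and Mmp14. Without vBM-MSC replicate 2 these passed the threshold (adjusted p = 0.0121 and 0.0368) and Mmp3 was lost (adjusted p = 0.0815). The bone marrow contrast set fBM-MSCs and vBM-MSCs against A-MSCs and P-MSCs, each tissue weighing the same. In it, the proteases Mmp13, Mmp2 and Mmp3 and the inhibitors Timp2 and Timp3 were higher in bone marrow and no member was lower. These 5 of 10 stand beside 47.2% of all genes, of which 24.8% were higher and 22.4% lower in bone marrow. The median log2 fold change of the members was 0.77, and that of all genes tested was 0.03. Mmp3 shares reads with Mmp10, as described below. The summed counts of both were not called in this contrast (log2 fold change 0.97, edgeR adjusted p = 0.119). Without vBM-MSC replicate 2, 4 members were higher and 2 were lower: Mmp3 was no longer called, and Mmp10 and Mmp14 passed the threshold as lower in bone marrow.

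**Figure D1:**
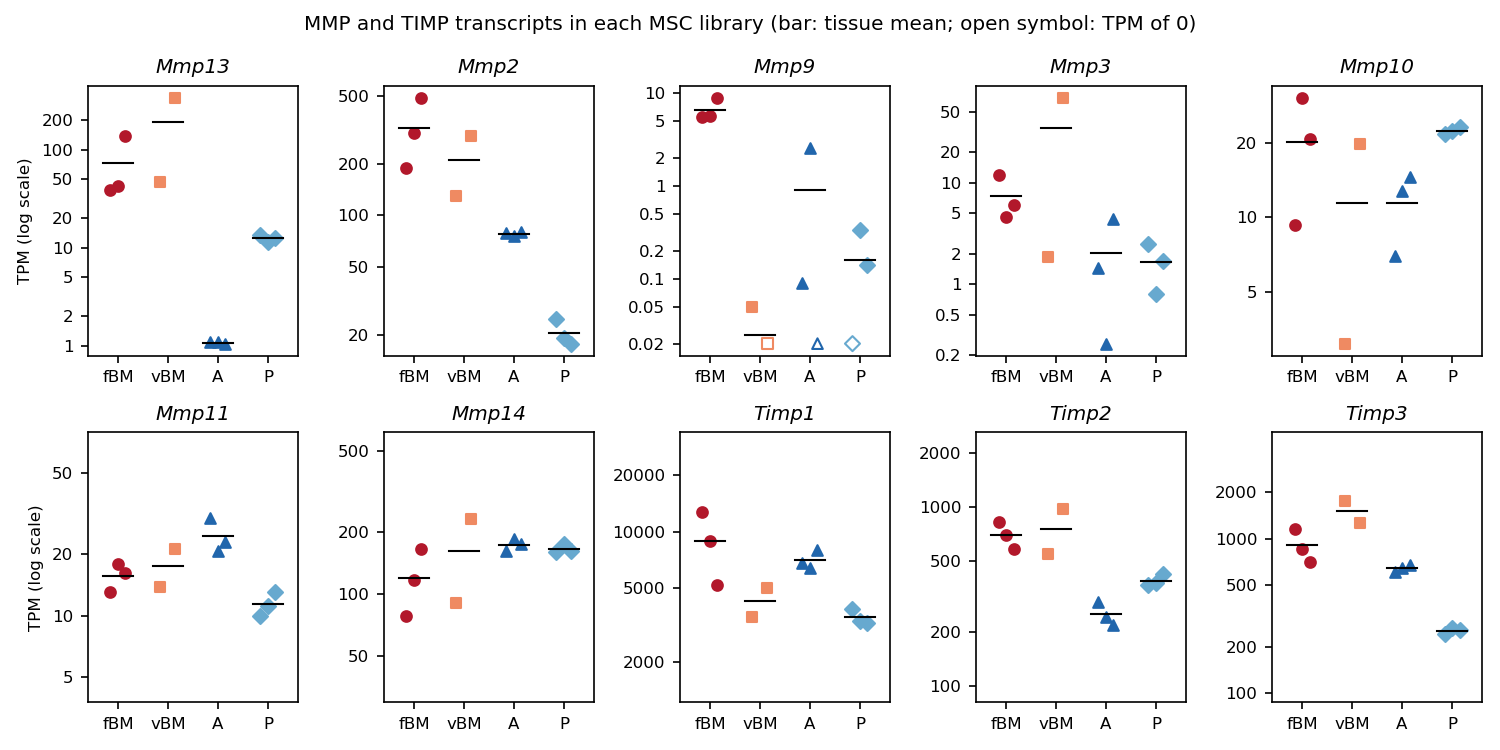
TPM of each member in each library on a log axis, by tissue, with the tissue mean as a bar and libraries listed at 0 as open symbols. Mmp13, Mmp2, Timp2 and Timp3 are higher in each of the 5 bone marrow libraries than in any of the 6 non-bone marrow libraries, and Mmp9 is above 5 TPM only in the 3 fBM-MSC libraries.

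The collagenase Mmp13 cleaves fibrillar collagens and is known in osteoblasts and hypertrophic cartilage. It lies at chr9:7272514-7283333 on the plus strand and has 10 exons. In fBM-MSCs its level was 39.1, 42.9 and 139 TPM in replicates 1, 2 and 3, and in vBM-MSCs it was 46.5 and 336 TPM. The A-MSC libraries were at 1.08, 1.08 and 1.05 TPM and the P-MSC libraries at 13.6, 11.4 and 12.6 TPM. The lowest bone marrow library was thus above the highest P-MSC library, and the A-MSC libraries were far below both.

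In the bone marrow contrast Mmp13 was 31.7-fold higher in bone marrow (4.99 on the log2 scale, SE 0.50, edgeR adjusted p = 1.2e-05). Without vBM-MSC replicate 2 the log2 fold change was 4.05 (SE 0.35, adjusted p = 1.16e-05). P-MSCs exceeded A-MSCs by 10.2-fold (edgeR adjusted p = 0.00378). The log2 difference between fBM-MSCs and vBM-MSCs was -1.26 (SE 0.63, adjusted p = 0.215). That difference passed the threshold when fBM-MSC replicate 3 (adjusted p = 0.0334) or vBM-MSC replicate 1 (adjusted p = 0.0464) was left out.

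The gelatinase Mmp2 degrades denatured collagen and basement membrane collagen. It lies at chr8:92827290-92853421 on the plus strand, has 13 exons and overlaps the unnamed locus Gm45472 on the other strand. Its level was 190.0, 304 and 486 TPM in the fBM-MSC libraries and 129.7 and 292 TPM in the vBM-MSC libraries. It was 79.0, 75.9 and 80.0 TPM in A-MSCs and 24.9, 19.0 and 17.7 TPM in P-MSCs. The tissue means therefore fell in the order fBM-MSC, vBM-MSC, A-MSC and P-MSC, of which fBM-MSC and vBM-MSC overlapped.

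For Mmp2 the bone marrow contrast was 2.70 on the log2 scale (SE 0.24, edgeR adjusted p = 4.55e-06), and it was 2.41 without vBM-MSC replicate 2. A-MSCs were 4.36-fold above P-MSCs (adjusted p = 0.000737). The vBM-MSC libraries exceeded A-MSCs by 1.28 on the log2 scale (SE 0.34, adjusted p = 0.017). This last call was lost without vBM-MSC replicate 2 (log2 fold change 0.71, adjusted p = 0.204) and without A-MSC replicate 2 (adjusted p = 0.0519). The gene next to Mmp2 on the same strand, Lpcat2, begins 1892 bp downstream of it and had tissue means of 11.4, 7.58, 4.93 and 0.48 TPM in the same order of tissues.

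Mmp9, the other gelatinase, is a known product of neutrophils, macrophages and osteoclasts. It was found almost only in fBM-MSCs, at 5.51, 5.64 and 8.87 TPM. The expected counts there were 219, 369 and 684. The vBM-MSC libraries held 3 and 0 counts, A-MSCs held 6, 213 and 0, and P-MSCs held 0, 22 and 10. A-MSC replicate 2, at 2.61 TPM, was thus the only library outside fBM-MSCs above 0.34 TPM.

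Summed over libraries and set against the library totals, fBM-MSCs held 1272 and vBM-MSCs 3 counts of Mmp9, a ratio of 315 with an exact 95% interval of 108 to 1532 that covers counting error only. The edgeR adjusted p of this difference was 0.0405, and it exceeded the threshold, at 0.0506 to 0.150, when any 1 of the fBM-MSC or vBM-MSC libraries or P-MSC replicate 2 or 3 was left out (0.133 without vBM-MSC replicate 2). The level in fBM-MSCs was also above that in P-MSCs, by 5.55 on the log2 scale (SE 1.56, adjusted p = 0.012). Against A-MSCs the adjusted p was 0.112, and without A-MSC replicate 2 it was 0.00379. With all libraries kept, this pair passed the threshold in both limma fits (adjusted p = 0.00085 and 0.00612) and with a replicate block (0.0485). The difference of vBM-MSCs from A-MSCs had an adjusted p of 0.103, and of 0.0471 without A-MSC replicate 3. The bone marrow contrast of Mmp9 was 0.13 on the log2 scale with an SE of 2.33 (adjusted p = 0.972).

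Markers of other cell types were read beside Mmp9. Of 10 osteoclast markers, Dcstamp was at 0 in every library, Calcr was at most 0.26 TPM and Acp5 was at most 0.77 TPM in fBM-MSCs, whereas Atp6v0d2, a subunit of the proton pump of osteoclasts, reached 23.0 TPM in fBM-MSCs and at most 0.83 TPM elsewhere. The list summed to 225 to 345 TPM in fBM-MSCs and 158 to 282 TPM in vBM-MSCs, against 68.8 to 81.2 TPM in A-MSCs and 64.0 to 73.3 TPM in P-MSCs. Ctsk took most of it. Of the 6 osteoclast markers tested, 4 were higher in bone marrow and none was lower. The largest were Atp6v0d2, Itgb3 (10.8, 9.17, 2.80 and 0.42 TPM in fBM-, vBM-, A- and P-MSCs) and Nfatc1 (13.5, 11.6, 5.68 and 2.38 TPM). The 16 macrophage markers summed to 45.2 to 72.5 TPM in fBM-MSCs and 24.9 to 54.1 TPM in vBM-MSCs, and to 15.2 to 29.0 TPM in the other tissues. Of them, the defining genes Ptprc, Adgre1 and Itgam were at most 0.35 TPM in any library. Of the 5 macrophage markers tested, 2 (Fcer1g and Lyz2) were higher in bone marrow and Csf1r was lower. Lyz2 averaged 27.0, 29.2, 9.27 and 2.09 TPM in fBM-, vBM-, A- and P-MSCs, and Cd68, which differed among the 4 tissues (adjusted p = 0.00157) and was not called between bone marrow and the others, averaged 14.6 TPM in fBM-MSCs and 1.80 to 6.18 TPM elsewhere. Fcer1g, a signalling subunit of Fc receptors that osteoclasts also use, was at 4.70, 15.9 and 19.8 TPM in fBM-MSCs and at 0.00 and 8.21 TPM in vBM-MSCs. The 8 neutrophil markers with a row summed to 0.64 to 10.3 TPM in fBM-MSCs and 0.75 to 1.74 TPM in vBM-MSCs, and to 4.27 to 15.9 TPM in A-MSCs and 3.45 to 6.20 TPM in P-MSCs. A-MSC replicate 2 held the highest of these sums, and S100a8 made up 15.4 TPM of it, with Ltf and Csf3r at 0. The part of these markers in the level of Mmp9 was not tested.

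The stromelysins Mmp3 and Mmp10 cleave proteoglycans and other non-fibrillar matrix proteins and can activate other pro-MMPs. They are close copies of each other, 10 exons each, at chr9:7445822-7455975 and chr9:7502342-7510242. RSEM split reads between them: the expected count of each was not whole in any of the 11 libraries, the sum of both was whole in all 11 (within 0.01), and the counts of the other 8 members were whole throughout. Each value of this pair therefore depends on the split, and the 2 genes are uncertain where taken apart.

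Mmp3 was at 11.9, 4.59 and 6.06 TPM in the fBM-MSC libraries and at 1.87 and 68.3 TPM in the vBM-MSC libraries. The A-MSC libraries held 1.44, 0.26 and 4.44 TPM and the P-MSC libraries 2.48, 0.81 and 1.69 TPM. One library, vBM-MSC replicate 2, was far above all others, and vBM-MSC replicate 1 lay within the range of A-MSCs and P-MSCs. The bone marrow contrast of Mmp3 was 3.08 on the log2 scale (SE 0.80, edgeR adjusted p = 0.00772). Without vBM-MSC replicate 2 it was 1.07 (SE 0.68, adjusted p = 0.229). The vBM-MSC libraries exceeded A-MSCs by 3.88 and P-MSCs by 4.37 on the log2 scale (adjusted p = 0.0319 and 0.0134). Without vBM-MSC replicate 2 these differences were -0.16 (adjusted p = 0.947) and 0.34 (adjusted p = 0.843), and fBM-MSCs against P-MSCs passed the threshold (adjusted p = 0.0399).

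Mmp10 was at 9.30, 30.5 and 20.9 TPM in the fBM-MSC libraries and at 3.07 and 19.9 TPM in the vBM-MSC libraries. The A-MSC libraries held 6.98, 12.8 and 14.5 TPM and the P-MSC libraries 21.7, 22.5 and 23.3 TPM. P-MSCs lay above every A-MSC and vBM-MSC library, and the other pairs of tissues overlapped. Mmp10 stood at -0.11 on the log2 scale in the bone marrow contrast (SE 0.39, adjusted p = 0.843). It was -0.98 (SE 0.34, adjusted p = 0.0388) without vBM-MSC replicate 2. The lone vBM-MSC library left then differed from fBM-MSCs, A-MSCs and P-MSCs (adjusted p = 0.0183, 0.0492 and 0.00723), with its spread taken from the other tissues. With only the 2 tissues in the fit, Mmp10 was lower in A-MSCs than in P-MSCs (-0.78 on the log2 scale, adjusted p = 0.0158). An alternative chosen after seeing the data took the counts of both genes as 1 feature. Its bone marrow contrast was 0.97 on the log2 scale (SE 0.48, edgeR adjusted p = 0.119), and no pair of tissues passed the threshold.

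Mmp11 (stromelysin 3), which is cleaved by furin inside the cell and acts little on fibrillar collagen, lies at chr10:75923221-75932502 on the minus strand. It was highest in A-MSCs, at 30.0, 20.7 and 22.9 TPM, and lowest in P-MSCs, at 9.89, 11.2 and 13.0 TPM. The fBM-MSC libraries were at 13.0, 17.9 and 16.2 TPM and the vBM-MSC libraries at 13.9 and 21.2 TPM. The tissue means of both lay between those of P-MSCs and A-MSCs, although vBM-MSC replicate 2 exceeded the lowest A-MSC library. A-MSCs exceeded P-MSCs by 1.32 on the log2 scale (SE 0.19, edgeR adjusted p = 0.000515). In the bone marrow contrast, Mmp11 was at -0.01 on the log2 scale (SE 0.14, adjusted p = 0.975), with the means of A-MSCs and P-MSCs on either side of the bone marrow ones. The vBM-MSC libraries against A-MSCs missed the threshold (-0.61 on the log2 scale, adjusted p = 0.0524), which was passed in 5 of 19 alternatives: RLE factors (0.0497), DESeq2 (0.0341) and without fBM-MSC replicate 1 (0.0475), vBM-MSC replicate 2 (0.0461) or A-MSC replicate 2 (0.0417).

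The membrane-type protease Mmp14, a collagenase of the cell surface, lies at chr14:54431598-54442456 on the plus strand with 10 exons. It was at 78.0, 117 and 165 TPM in fBM-MSCs and at 90.3 and 232 TPM in vBM-MSCs. The non-bone marrow libraries were within 160.0 to 185 TPM, a narrower range than either bone marrow tissue, which they overlapped. No pair of tissues passed the threshold in the edgeR fit of all libraries by tissue, and the bone marrow contrast was -0.30 on the log2 scale (SE 0.21, edgeR adjusted p = 0.262). Without vBM-MSC replicate 2 it was -0.65 (SE 0.18, adjusted p = 0.015). The pair of fBM-MSCs and A-MSCs (-0.61 on the log2 scale, SE 0.28, adjusted p = 0.105) passed under 5 alternatives, among them DESeq2 (0.0478) and leaving out fBM-MSC replicate 3 (0.0201), vBM-MSC replicate 1 (0.034) or vBM-MSC replicate 2 (0.0337). A-MSCs against P-MSCs passed with only the 2 tissues in the fit (0.26 on the log2 scale, adjusted p = 0.0166).

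**Figure D2:**
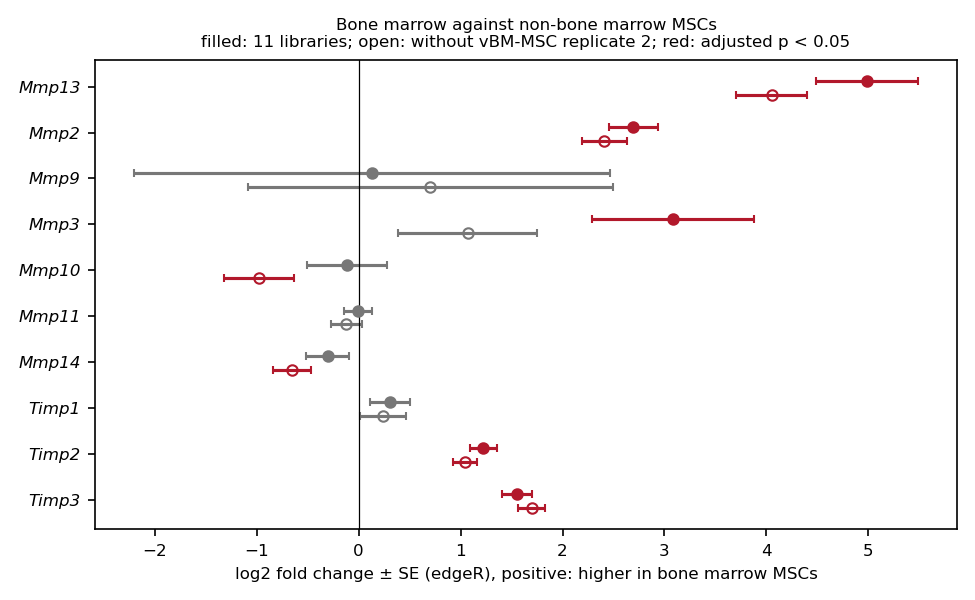
Log2 fold change with its SE from edgeR for each member, bone marrow against non-bone marrow MSCs, from 11 libraries (filled) and without vBM-MSC replicate 2 (open), in red where the adjusted p is under 0.05. Mmp13, Mmp2, Timp2 and Timp3 stay on the right in red in both fits, while Mmp3 turns grey and Mmp10 and Mmp14 turn red on the left without that library.

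Summed on the TPM scale, which corrects for transcript length, the inhibitors were more abundant than the proteases, and Timp1 made up most of their sum. Timp1, a secreted inhibitor of most MMPs, lies at chrX:20870166-20874737 inside the synapsin gene Syn1, which runs on the other strand. It was at 12671, 8936 and 5173 TPM in fBM-MSCs and at 3495 and 4983 TPM in vBM-MSCs. A-MSCs were at 6822, 6386 and 7989 TPM and P-MSCs at 3853, 3310 and 3253 TPM. The means of fBM-MSCs and A-MSCs were thus above those of vBM-MSCs and P-MSCs.

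Timp1 in fBM-MSCs was 2.21-fold that in vBM-MSCs (edgeR adjusted p = 0.0295) and 2.82-fold that in P-MSCs (adjusted p = 0.000707). The first of these was lost with only the 2 tissues in the fit (adjusted p = 0.173), without fBM-MSC replicate 2 (0.0551), without vBM-MSC replicate 1 (0.183) and without vBM-MSC replicate 2 (0.0552). A-MSCs were 2.35-fold above P-MSCs (adjusted p = 0.00481). The bone marrow contrast of Timp1 was 0.31 on the log2 scale (SE 0.19, adjusted p = 0.214), and 0.45 (adjusted p = 0.0132) without fBM-MSC replicate 3. Syn1 averaged 5.61, 1.61, 1.66 and 0.65 TPM in fBM-, vBM-, A- and P-MSCs. The counts of Timp1 were whole in all 11 libraries.

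Timp2, which inhibits MMPs and also takes part in the activation of pro-Mmp2, lies at chr11:118301061-118355411 on the minus strand and overlaps Cep295nl on the same strand. Its level was 822, 696 and 580.2 TPM in the fBM-MSC libraries and 546 and 968 TPM in the vBM-MSC libraries. A-MSCs held 293, 241 and 217 TPM and P-MSCs 365, 374 and 420.2 TPM. Every bone marrow library was above every non-bone marrow library, and A-MSCs and P-MSCs did not overlap. The bone marrow contrast of Timp2 was 1.22 on the log2 scale (SE 0.13, edgeR adjusted p = 2.46e-05), or 2.33-fold. A-MSCs against P-MSCs missed the threshold (-0.44 on the log2 scale, SE 0.18, adjusted p = 0.0884), which it passed under 7 alternatives, such as DESeq2 (adjusted p = 0.046) and leaving out vBM-MSC replicate 1 (0.0391) or 2 (0.0396).

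Timp3, the inhibitor that stays bound to the matrix and also inhibits ADAM proteases, lies at chr10:86300412-86349505 on the plus strand, within Syn3 on the other strand. The vBM-MSC libraries were highest at 1759 and 1271 TPM, followed by fBM-MSCs at 1159, 858 and 705 TPM. A-MSCs were at 609, 643 and 678 TPM and P-MSCs at 241, 264 and 258 TPM. No library of one tissue overlapped another tissue in this order. Syn3 averaged at most 0.09 TPM in any tissue.

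Timp3 was higher in bone marrow by 1.55 on the log2 scale (SE 0.15, edgeR adjusted p = 7.81e-06), which was 1.70 without vBM-MSC replicate 2. A-MSCs were 2.89-fold above P-MSCs (adjusted p = 0.000309). The difference between fBM-MSCs and vBM-MSCs was -0.71 (SE 0.22) with an adjusted p of 0.0514. It passed the threshold in 7 of 19 alternatives: DESeq2 (0.0101), both limma fits (0.0165 and 0.0186), no filter (0.0302), library totals (0.0282), without fBM-MSC replicate 1 (0.00785) and without vBM-MSC replicate 2 (0.0139). The TPM ranges of bone marrow and non-bone marrow libraries did not overlap for 4 of the 10 members, Mmp2, Mmp13, Timp2 and Timp3, beside 19.9% of all genes tested.

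In the comparison of fBM-MSCs with P-MSCs, 7 of 10 members were called, all higher in fBM-MSCs, beside 47.7% of all genes. The vBM-MSCs differed from P-MSCs in 6 members, all higher in vBM-MSCs (38.7% of all genes), and from A-MSCs in 6, of which Timp1 was lower in vBM-MSCs (25.6%). A-MSCs differed from P-MSCs in 5 (30.9%), with Mmp13 lower and Mmp2, Mmp11, Timp1 and Timp3 higher in A-MSCs. The fBM-MSCs differed from A-MSCs in 4 (40.9%), with Mmp11 lower and Mmp2, Mmp13 and Timp2 higher in fBM-MSCs. The 2 bone marrow tissues differed in 2 members, Mmp9 and Timp1 (12.8%). Of these 30 calls, 22 held in every alternative run. These comparisons share tissues, so their counts are not independent.

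The other 8 calls depended on the setting. Timp1 in vBM-MSCs against A-MSCs (adjusted p = 0.0483) was lost in 12 of 19 alternatives, with adjusted p up to 0.199, among them leaving out any 1 of the vBM-MSC, A-MSC or P-MSC libraries or fBM-MSC replicate 2 (0.1005 without vBM-MSC replicate 2). Mmp3 in vBM-MSCs was lost in 7 of 19 alternatives against A-MSCs, A-MSC replicates 1 and 2 left out included, and in 4 of 19 against P-MSCs, P-MSC replicate 2 left out included. Mmp11 against P-MSCs was lost in 6 of 19 alternatives for both fBM-MSCs and vBM-MSCs, such as without P-MSC replicate 1 (adjusted p = 0.0806 and 0.0608) or 2 (0.0636 and 0.0505), without fBM-MSC replicate 2 for the first (0.068) and without vBM-MSC replicate 2 for the second (0.146). The calls of Mmp2 in vBM-MSCs against A-MSCs and of Mmp9 and Timp1 in fBM-MSCs against vBM-MSCs are given with their exceptions above. In all, leaving out vBM-MSC replicate 2 removed 7 of the 30 calls and added 8 others.

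**Figure D3:**
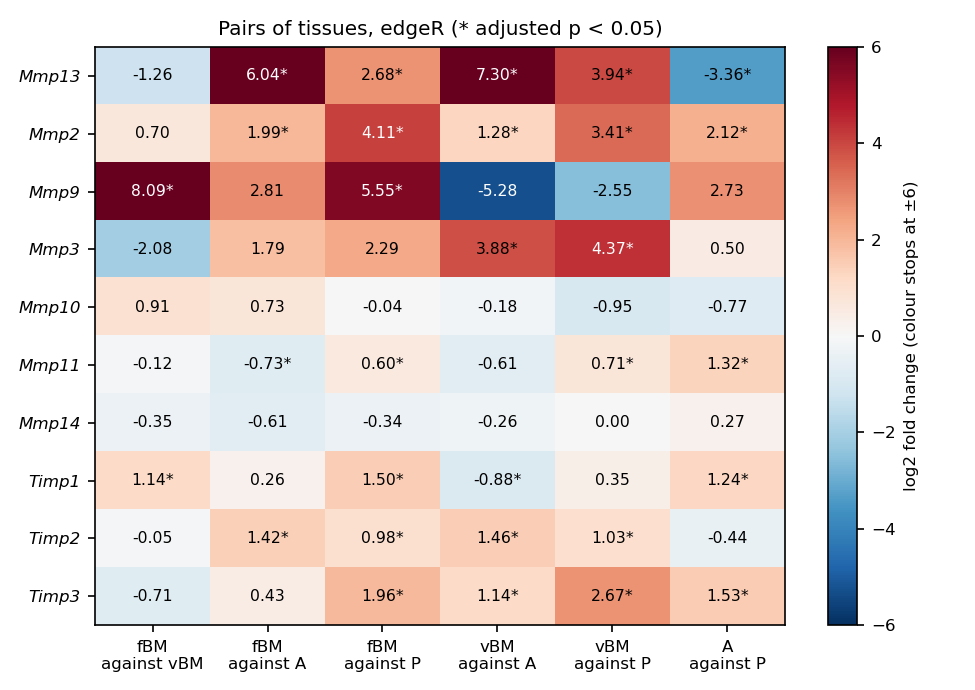
Log2 fold change from edgeR for each member (rows) in each of the 6 pairs of tissues (columns, first tissue against second), with a star where the adjusted p is under 0.05. Mmp10 and Mmp14 carry no star, and Mmp13 holds the values 6.04 and 7.30 for fBM-MSCs and vBM-MSCs against A-MSCs.

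Ratios between members were formed within each library from TPM and are given as a description. The summed TPM of the 3 inhibitors exceeded that of the 7 proteases in every library. This ratio was 42.2, 20.1 and 7.68 in fBM-MSC replicates 1, 2 and 3 and 20.3 and 7.45 in vBM-MSCs, against 24.4 to 29.8 in the A-MSC libraries and 16.4 to 19.2 in the P-MSC libraries. Of the 5 bone marrow libraries, 1 thus lay above all non-bone marrow libraries, 2 lay below them and 2 lay within their range.

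Mmp2 TPM per Mmp14 TPM separated the tissues without overlap, at 2.44, 2.60 and 2.95 in fBM-MSCs, 1.44 and 1.26 in vBM-MSCs, 0.410 to 0.490 in A-MSCs and 0.108 to 0.155 in P-MSCs. Both vBM-MSC libraries, which differed widely in the TPM of each gene, were close in this ratio. Timp2 TPM per Mmp14 TPM was 3.52 to 10.5 in bone marrow and 1.24 to 2.60 in non-bone marrow libraries. Timp3 TPM per Timp1 TPM was 0.503 and 0.255 in vBM-MSCs and 0.0626 to 0.136 in all other libraries. Timp1 made up 83.9% ± 3.37 (SD, n = 3) of the summed inhibitor TPM in fBM-MSCs and 64.6% ± 6.18 (n = 2) in vBM-MSCs, against 88.7% ± 1.09 (n = 3) in A-MSCs and 84.3% ± 1.88 (n = 3) in P-MSCs.

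**Figure D4:**
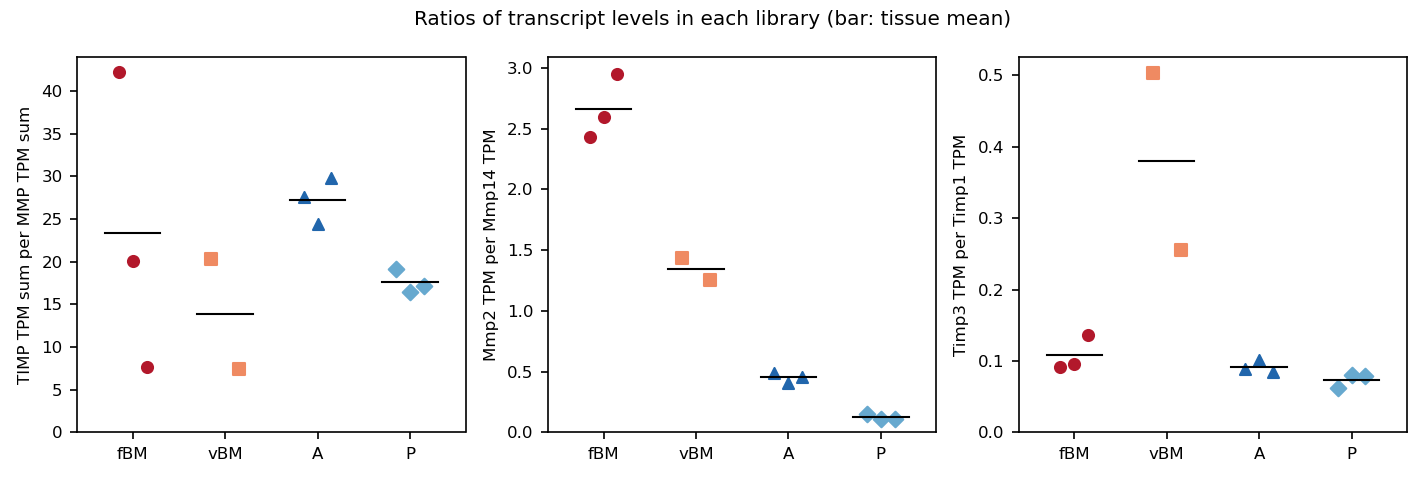
Ratios of TPM values within each library (points) with the tissue mean (bar): summed TIMPs per summed MMPs, Mmp2 per Mmp14 and Timp3 per Timp1. Mmp2 per Mmp14 falls from 2.66 ± 0.26 (mean ± SD) in fBM-MSCs to 0.124 ± 0.03 in P-MSCs without overlap of tissues, and both vBM-MSC libraries are the highest in Timp3 per Timp1.

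Markers of bone-forming and cartilage cells were read beside the proteases that were higher in bone marrow. Of 14 such markers, 12 were tested, 11 were higher in bone marrow and none was lower, with Ibsp, Alpl and Dmp1 the largest. Several were at or near 0 outside bone marrow, so levels are given in place of fitted folds. Summed, they reached 27066, 39613 and 88249 TPM in fBM-MSC replicates 1, 2 and 3, 1618 and 9760 TPM in vBM-MSC replicates 1 and 2, 356 to 391 TPM in A-MSCs and 164 to 290.4 TPM in P-MSCs. Spp1 (osteopontin) made up most of it. Ibsp, a protein of mineralized matrix, was at 218, 286 and 1010 TPM in fBM-MSCs, at 16.9 and 321 TPM in vBM-MSCs and at most 0.08 TPM elsewhere. In these markers, fBM-MSC replicate 3 and vBM-MSC replicate 2 were the highest libraries of their tissue. They were also the highest of their tissue in Mmp13, Mmp2 and Mmp14, of which Mmp14 was not called higher in bone marrow. Mmp9 was also highest in fBM-MSC replicate 3, whereas Mmp10 and Mmp11 were highest in replicate 2. Timp1, Timp2 and Timp3 were lowest in fBM-MSC replicate 3 (5173, 580 and 705 TPM). In vBM-MSCs, replicate 2 was the higher library for every member except Mmp9 and Timp3. Mmp3 did not follow in fBM-MSCs, where it was highest in replicate 1, the lowest in these markers. The part of these markers in the level of the proteases was not tested.

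Markers of epithelial and mesothelial cells moved the other way. Of 11 listed, 7 were tested and 5 were lower in bone marrow, led by Krt8, Krt18 and Msln. The other 2, Wt1 and Lrrn4, averaged 12.4 and 2.07 TPM in A-MSCs and were listed at 0 in all other tissues, which left that contrast without a usable SE, and all 7 differed among the 4 tissues. Their sum was 80.9 to 96.1 TPM in A-MSCs, 54.8 to 64.0 in P-MSCs, 9.26 to 13.0 in vBM-MSCs and 2.18 to 11.8 in fBM-MSCs, and the lung epithelial gene Sftpc was at 0 in every library. In P-MSCs, Krt19 made up most of the sum (54.9 TPM on average), with Krt8 and Krt18 at 0.08 and 0.85 TPM. Of 8 endothelial markers, 5 were tested and 3 (Emcn, Cdh5 and Kdr) were lower in bone marrow, with a sum of 59.1 TPM in A-MSC replicate 1 and at most 14.5 TPM in any other library. Their part in the level of the members was not tested.

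Of the 17 other genes of the family (16 MMPs and Timp4), 6 passed the filter, and 4 were higher and 1 lower in bone marrow (median log2 fold change 1.47, including Timp4, which was listed at 0 in bone marrow and was not called). Mmp16, a membrane-type MMP, averaged 7.21, 19.3, 0.54 and 6.49 TPM in fBM-, vBM-, A- and P-MSCs (log2 fold change 2.66, SE 0.18, edgeR adjusted p = 6.59e-07). Mmp15, also of the membrane type, averaged at most 0.99 TPM (log2 fold change 2.48, adjusted p = 0.0014). Mmp19, a secreted protease, averaged 16.0, 21.0, 4.57 and 3.72 TPM (log2 fold change 2.16, adjusted p = 1.99e-06). Mmp17, a GPI-anchored member, was the one lower in bone marrow (log2 fold change -1.59, adjusted p = 0.0177). The other genes of the chromosome 9 cluster were near 0: Mmp1a and Mmp20 had no count, and Mmp1b, Mmp7, Mmp8, Mmp12 and Mmp27 averaged at most 1.19 TPM in any tissue.

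Of 18 genes that activate, inhibit or bind MMPs, 16 were tested, with 9 higher and 3 lower in bone marrow and a median log2 fold change of 0.34. The largest were Serpine2 (protease nexin 1), Thbs2 (thrombospondin 2, which mediates uptake of Mmp2) and Reck (a membrane-anchored MMP inhibitor), at log2 fold changes of 4.89 (adjusted p = 1.4e-06), 2.18 (adjusted p = 0.00205) and 1.93 (adjusted p = 1.64e-06). Reck averaged 10.4, 20.8, 5.07 and 3.01 TPM in fBM-, vBM-, A- and P-MSCs. Plau (urokinase) was lower in bone marrow (log2 fold change -1.78, adjusted p = 2.04e-06), whereas the proprotein convertase Furin had a log2 fold change of -0.13 (adjusted p = 0.36).

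Of 12 further proteases of the matrix, 10 were tested, with 6 higher and 1 lower (median 0.78). Fap (fibroblast activation protein) and Ctsd (cathepsin D) were higher in bone marrow by log2 fold changes of 6.78 and 1.91, and Tll1, a procollagen C-proteinase, was lower by -2.87, averaging 4.58, 4.47, 14.9 and 72.9 TPM in fBM-, vBM-, A- and P-MSCs. Of 11 ADAM genes (membrane sheddases), 10 were tested, with 2 higher and 3 lower (median 0.16), led by Adam22 (2.94), Adam12 (-2.69) and Adam19 (-1.30). Of 21 ADAMTS and ADAMTS-like genes, 12 were tested, with 3 higher and 2 lower (median 0.41), led by Adamtsl3 (3.02), Adamtsl4 (2.18) and Adamts6 (-1.27). Adamtsl3 and Adamtsl4 are ADAMTS-like proteins, which lack the protease domain, so 1 protease of this list, Adamts5, was higher. Of 15 AP-1, ETS, RUNX and cytokine genes that are known regulators of MMP promoters, 12 were tested, with 4 higher and 2 lower (median -0.05), led by Il6 (-1.24), Tgfb1 (1.06) and Jund (0.91). Il1b and Tnf had no count in any library. Runx2 averaged 8.59, 3.55, 3.22 and 2.73 TPM in fBM-, vBM-, A- and P-MSCs (log2 fold change 0.84, adjusted p = 0.00941). The values in this paragraph are log2 fold changes of bone marrow against non-bone marrow MSCs unless a TPM is named.

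Chromatin near the members was described from summits with a −log10 q of at least 7, the cutoff of the study. The lists hold 1 pooled sample per tissue and chromosomes 1 to 19, so Timp1 has no entry and differences between tissues carry no replicate check. A promoter summit (within 1 kb of a start site) was present for 7 of 9 members in the fBM-MSC list, 6 each in the vBM-MSC and A-MSC lists and 5 in the P-MSC list. Of 11468 tested genes on these chromosomes, 86.3%, 88.2%, 89.0% and 88.1% had one in the same order. Mmp3 and Mmp9 had none in any tissue, and Mmp3 had no summit within 20 kb. Below the cutoff, a promoter summit was listed for Mmp9 in fBM-MSCs (fold enrichment 4.41, -492 bp) and for Mmp3 in fBM-MSCs (4.78) and P-MSCs (4.41).

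At Mmp13 the promoter held a summit only in the bone marrow lists, at -67 bp with a fold enrichment over background of 9.56 in fBM-MSCs and at -6 bp with 7.36 in vBM-MSCs. Below the cutoff, A-MSCs and P-MSCs had promoter summits of 4.05 and 4.41. The AP-1 letters printed above lie between these 2 summits. Another region about 2.2 kb upstream held summits only in A-MSCs (9.56) and P-MSCs (12.9), and a summit in an intron was listed only in P-MSCs (8.83, 3291 bp downstream of the start site).

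At Mmp10 the highest promoter summits were 17.3 in A-MSCs (-139 bp) and 15.1 in P-MSCs (-126 bp). Those of fBM-MSCs were 6.99 (-892 bp) and 6.62 (-159 bp), and that of vBM-MSCs, 4.78, was below the cutoff. For the RNA of Mmp10 no pair of tissues passed the threshold in the edgeR fit of all libraries by tissue. At Mmp2 the promoter summits of fBM-, vBM- and A-MSCs were 9.93, 9.20 and 6.99 and, below the cutoff, that of P-MSCs was 3.68, which is the order of the mean TPM of the tissues. An intron of Mmp2, 20.2 kb downstream of the start site, held a larger summit in all 4 tissues, of 21.0, 23.9, 34.2 and 16.6 in fBM-, vBM-, A- and P-MSCs. With 4 tissues and no replicates, these orders are descriptions.

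Mmp14 had promoter summits in all 4 tissues, of which that in A-MSCs was the highest (16.9), and an intron summit 3.8 kb downstream of its start site was 29.8 in A-MSCs and 31.3 in P-MSCs against 10.7 in fBM-MSCs, with vBM-MSCs close to the latter. Mmp11 had promoter summits of 8.09 to 9.56 in all tissues, which also lie in the promoter window of Chchd10, 628 bp away on the other strand. It also had an intron summit 2.0 kb downstream, which was 25.4 in P-MSCs and 9.93 to 12.9 in the others, although P-MSCs had the lowest Mmp11 TPM. Timp2 (8.83 to 14.7) and Timp3 (8.46 to 14.0) had promoter summits in all tissues, highest in vBM-MSCs for both. Timp3 also held 2 intron summits, about 10 and 39 kb downstream of the start site, of 21.7 to 34.6 in all tissues. Overlapping regions were merged into 74 loci within 20 kb of the 9 members, of which 30 held a summit in all 4 lists. The same share over all loci was not computed.

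**Figure D5:**
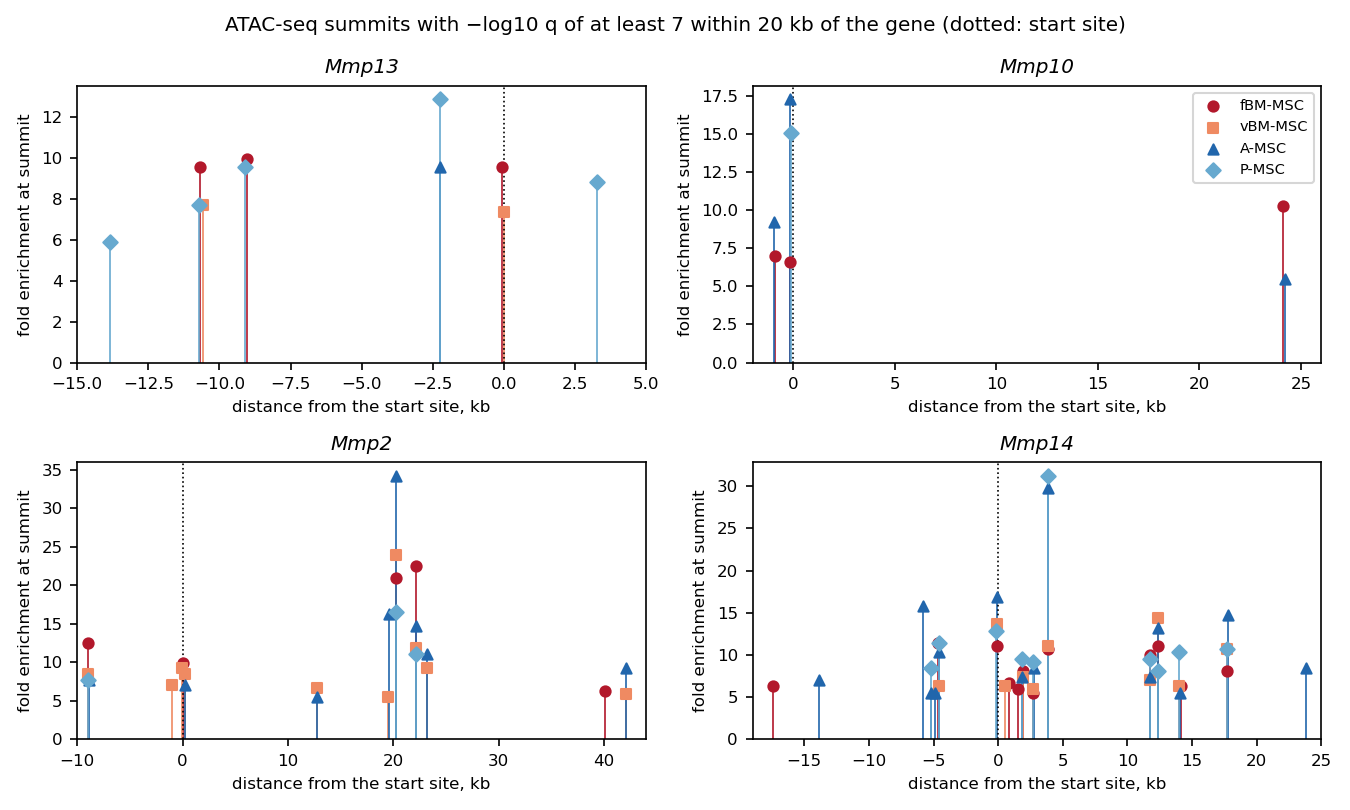
Fold enrichment of each ATAC-seq summit with −log10 q of at least 7 (y axis) against its distance from the start site in kb (x axis) for Mmp13, Mmp10, Mmp2 and Mmp14, coloured by tissue. The Mmp13 start site carries summits of fBM-MSCs and vBM-MSCs only, while at Mmp10 the A-MSC and P-MSC summits reach 17.3 and 15.1.

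The genes whose levels were most like each member across the 11 libraries were found by Pearson's r on log2(TPM + 1) and are given as a description. Tissue differences shared by many genes raise these values. Mmp13 was most like Adcy2 (r = 0.990), Mmp2 most like Fam20a (0.987), and Timp3 most like Mtss1 (0.992). For the others the most similar genes were Rusc1 for Mmp3 (0.943), Vti1a for Mmp9 (0.972), Cpd for Mmp10 (0.953), Tacc1 for Mmp11 (0.943), Cmtm3 for Mmp14 (0.956), Prdx1 for Timp1 (0.957) and Clstn1 for Timp2 (0.981). The next 2 genes of each member had r between 0.907 and 0.985, and no member was among the 3 genes most like another member.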

How the data were processed

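RNA-seq libraries were made by Smart-seq2, which keeps no strand and counts no molecules. The authors quantified paired reads on mm10 by RSEM, with STAR as the aligner (versions not given in the sources used here). The deposited expected count per gene is an estimate that is not normalized, and the deposited TPM and FPKM values are scaled by RSEM for length and library size. FPKM was not used. ATAC-seq reads were trimmed with Trim Galore, aligned with Bowtie and stripped of duplicates with Picard. Peaks were called with MACS2 on 1 pooled set per tissue, without local background. The deposited lists give each summit's fold enrichment as a ratio, and the authors' −log10 p and −log10 q, of which only the q was used.

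The test on rounded expected counts was that of edgeR 4.0.16 (TMM, quasi-likelihood F test, two-sided) in R 4.3.3, in 1 fit of 11 libraries with tissue as the group, for genes reaching a CPM of 1 in 2 or more libraries. P-values were adjusted by Benjamini-Hochberg over all 12509 genes, at 0.05. They measure the spread between these libraries. The script was tested on simulated data. The alternatives were RLE factors, library totals without TMM, DESeq2 1.42.0, limma 3.58.1 on log2(TPM + 1) or log2(TPM + 0.1), no filter, a replicate block, only the 2 tissues of a pair, and leaving out each library. Library totals and the sum of Mmp3 and Mmp10 were added after seeing the data. Gene structures and promoters came from RefSeq for GRCm38, whose chromosome lengths fit the lists.

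The members and gene lists were chosen with earlier results of these data known. Beside the 10 members, the text names for each list the up to 3 called genes with the largest log2 fold change in the bone marrow contrast (the mean of fBM- and vBM-MSCs against that of A- and P-MSCs), the genes most like a member, and neighbours or overlapping genes. Other genes named (Plau, Furin, Runx2, Mmp17, Cd68, Wt1, Lrrn4, Krt19, Adamts5, the rest of the chromosome 9 cluster and single marker genes) were chosen after their values were seen.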

Additional observations from a re-analysis of the deposited data

How the results depend on the processing

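The number of members differing among the 4 tissues was 7 to 8 under the 7 alternatives other than leaving out a library, and 8 to 9 when 1 library was left out. Members called in the bone marrow contrast numbered 5 to 6 in both sets of alternatives, and calls summed over the 6 pairs of tissues ranged from 29 to 32, and from 25 to 33 without 1 library. Promoter summits summed over 9 members and 4 tissues fell from 24 to 10 at a −log10 q of at least 20, where 62.9% to 70.9% of all genes tested kept one, and were 31 with no threshold. Merging by summits within 100 bp in place of overlapping regions gave 117 loci near the members in place of 74. Of these 117, 31 held a summit in all 4 lists, beside 30 of the 74. In the bone marrow contrast, Mmp9 passed the threshold in limma on log2(TPM + 1) (log2 fold change 1.04, adjusted p = 0.0121). With library totals in place of TMM, the median of all genes moved to -0.24 in A-MSCs against P-MSCs (-0.01 with TMM), and Timp2 then passed the threshold in that pair (adjusted p = 0.0228). Without fBM-MSC replicate 3, Timp1 (0.0354) and Timp3 (0.0263) passed the threshold in fBM-MSCs against A-MSCs.

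Replicate numbers were shared by the tissues. Deviations of same-numbered libraries from their tissue means correlated at -0.028 to 0.125 over 15 pairs, of which 1 exceeded 0.1. Pairs with different numbers spanned -0.125 to 0.109. The 2 vBM-MSC libraries deviate from their mean by opposite amounts, so their correlations mirror each other. Of 11 libraries, 5 correlated best with a library of their own number, and the count expected without pairing was not computed. With a replicate block, 7 members differed among the 4 tissues, 5 in the bone marrow contrast, and 31 calls were made over the pairs of tissues. The block removed the calls of Mmp3 among the 4 tissues (adjusted p = 0.0652) and in vBM-MSCs against A-MSCs (0.0671), and added Mmp9 (0.0485) and Mmp14 (0.049) in fBM-MSCs against A-MSCs. No source says that a number marks a mouse, so the block was not used for the results. Values of Mmp9 outside fBM-MSCs rest on 0 to 22 counts, except for A-MSC replicate 2 with 213, and the peak lists have no replicates.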
